A study of Mus musculus with 9 samples.

Results

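Interferon-stimulated genes are the genes that cells switch on when an interferon binds its receptor, and 38 of them were followed here in sorted mouse prostate cells. They were chosen by name, and a gene was found where a probe carried its symbol or an older synonym. Of the 38 genes, 36 had at least 1 of 59 probes on the array, and all 36 passed the filter on dim probes, among 19847 genes tested. Xaf1 and Dtx3l matched no probe name and were not analysed here. Several members were listed under older names: Dhx58 as D11Lgp2e, Irf9 as Isgf3g, Irgm1 as Irgm and Cmpk2 as Tyki. The Gbp3 probe was listed as Gbp4 and was named from its RefSeq accession.

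As background, type I interferons (alpha and beta) and type III interferons (lambda) signal through JAK1 and TYK2 to a complex that contains STAT2 and IRF9 and binds the interferon-stimulated response element. Type II interferon (gamma), made mainly by T and NK cells, signals through JAK1 and JAK2 to factors that bind the gamma-activated site and that induce IRF1. The induced proteins sense viral RNA and DNA, degrade RNA, block translation, tag proteins with ISG15 or attack the membranes around pathogens. Many of them are also present at a basal level in unstimulated tissue, and several feed back on the pathway itself.

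The study compared a pair of sorted fractions of primary prostate cells from BL6 mice. The marker-positive cells, which the labels call stem cells, lacked lineage markers and carried CD44, CD133, Sca-1 and CD117 (3 arrays). The marker-negative cells were likewise free of lineage markers and showed none of those surface proteins (6 arrays). On every array the sample RNA carried Cy5 and a pooled mouse reference RNA carried Cy3, so each value is a log2 ratio of sample over reference for that probe and is not comparable between probes. The age and number of the mice, and whether arrays came from separate animals, are not given in the sources used here, so p-values measure the spread between arrays, which may be technical. The labels name no interferon or other treatment of the mice.

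Secretory prostate genes were far above the reference in both groups, with list means of 6.0 to 6.82 on marker-positive and 7.90 to 9.01 on marker-negative arrays. The sort left a transcript-level trace: Ly6a, which encodes Sca-1, was higher in marker-positive cells by 3.93 on the log2 scale, and Kit, which encodes CD117, by 3.45 (limma, adjusted p = 0.0132 and 0.046). Blood cell genes were present in both fractions although lineage-positive cells had been removed, as given below beside the results they accompany. The share of probes well above background in Cy5 ran from 46.28% on marker-positive replicate 3 to 70.15% on marker-positive replicate 2. Marker-positive replicate 3 also stood apart in its profile: its correlation over tested probes was 0.609 with replicate 1 and 0.582 with replicate 2, whereas replicates 1 and 2 had a correlation of 0.923 with each other. With marker-negative replicates 4 and 6 its correlation was higher than with its own group, at 0.677 and 0.676. With the other marker-negative arrays it was 0.483 to 0.589. For this reason the main counts are also given without it.

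Taken gene by gene, 7 of the 36 members were higher in marker-positive cells and 0 were lower, at an adjusted p under 0.05 in limma's moderated test over all probes. Among all genes tested, 1.56% were called higher and 1.67% lower. The 7 genes were Gbp2, Oasl2, Rtp4, Cmpk2, Usp18, Trim25 and Oas2, and their differences ran from 1.70 to 3.22 on the log2 scale (3.25-fold to 9.31-fold). The other 29 members did not pass. At an unadjusted p under 0.05, 27 members had a positive and 0 a negative difference, against 9.71% of all genes with a positive one. The difference was positive in 34 of 36 members against 48.8% of all genes, and it exceeded 1 on the log2 scale in 30 members against 10.1% of all genes. In 16 members, against 5.13% of all genes, every marker-positive array lay above every marker-negative array. The median difference over the 36 members was 1.70, and that over all genes was -0.01. In bulk RNA of this kind, more cells that express these genes and more RNA of these genes per cell cannot be told apart.

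**Figure D1:**
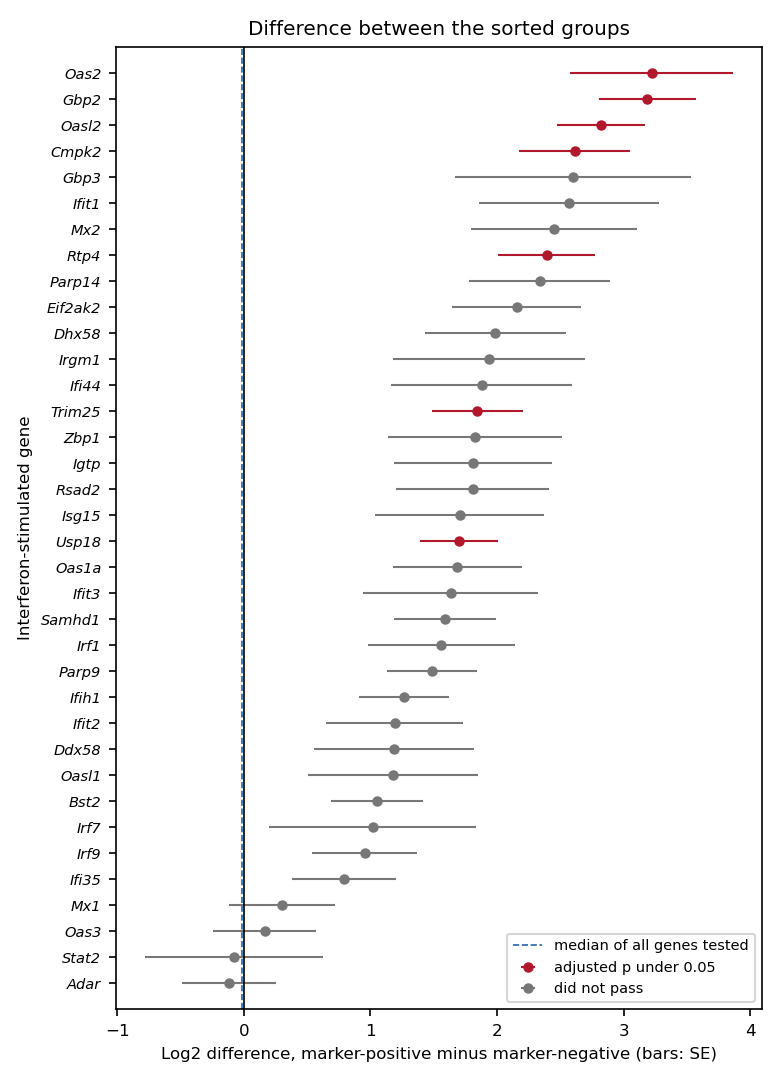
Log2 difference of each of the 36 genes (marker-positive minus marker-negative mean, x axis, with its standard error as a bar), sorted by size, with 3 marker-positive and 6 marker-negative arrays. The 7 genes in red passed an adjusted p of 0.05, and 34 of 36 points lie to the right of 0, while the dashed line marks the all-gene median of -0.01.

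The number of calls depended on single arrays. Without marker-positive replicate 1, 2 members were called (Gbp2 and Oasl2), without replicate 2, 3 members (Cmpk2, Gbp2 and Oasl2), and without replicate 3, 14 members, while leaving out any marker-negative array gave 6 to 9. The median difference was 1.44 to 1.94 over these 9 fits, and the count of positive differences was at least 32. Median centring in place of loess left 2 members called (Gbp2 and Oasl2), and weights by array quality, which gave marker-positive replicate 3 a weight of 0.243, called 25. Calls over all genes moved as well, from 310 higher in the main fit. They were 88, 99 and 914 without marker-positive replicates 1, 2 and 3, and 165 to 299 without a marker-negative array. With median centring they were 139, and with array weights 2200.

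The arrays lay on 5 slides, of which 2 held both groups. On slide 1, with 1 array of each group, all 36 differences were positive with a median of 1.85, against a median of -0.05 over all genes. On slide 2, with 1 marker-positive and 2 marker-negative arrays, 33 of 36 were positive with a median of 2.34, against -0.04 over all genes. The exceptions on slide 2 were Mx1, Oas3 and Adar. With slide as a fixed block, which uses only those slides for the contrast, 2 members were called (Cmpk2 and Irgm1) and the median difference was 2.13. With slide as a random block 9 members were called. Over all genes, 127 were called higher with the fixed block and 335 with the random block, against 310 in the main fit.

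**Figure D2:**
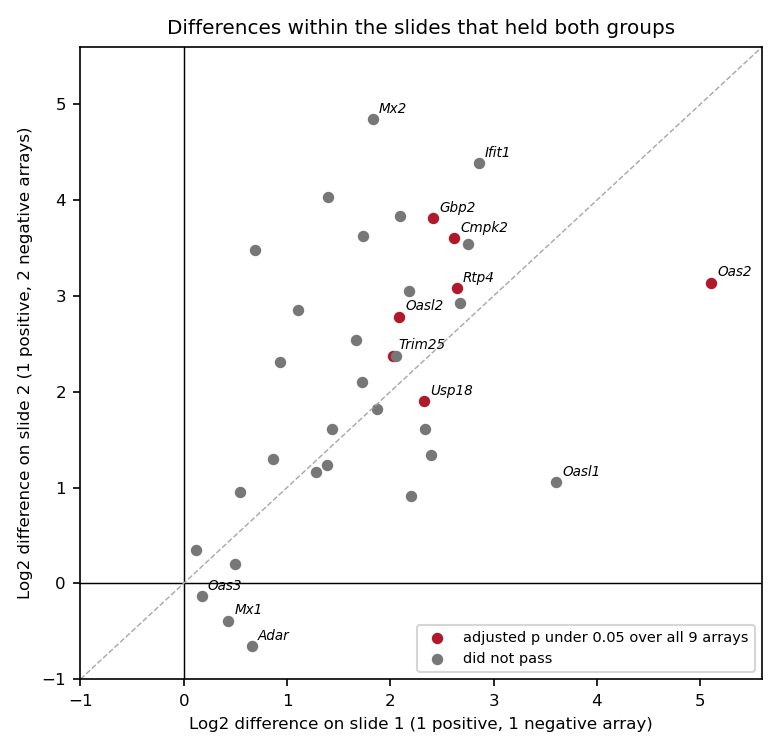
Log2 difference of each gene within slide 1 (x axis) and within slide 2 (y axis), the slides that carried both groups, with the 7 called genes in red and the line of equality dashed. All but 3 points lie above 0 on both axes, and Mx1, Oas3 and Adar fall below 0 on slide 2.

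Array by array, the median log2 ratio of the 36 members was 1.90, 1.80 and 1.31 on marker-positive replicates 1 to 3. On marker-negative replicates 1 to 6 it was -0.28, -0.81, -0.13, 0.17, -0.24 and 0.30. In this median the groups did not overlap. Between 27 and 29 members were above the reference RNA on each marker-positive array, against 9 to 21 on the marker-negative arrays.

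**Figure D3:**
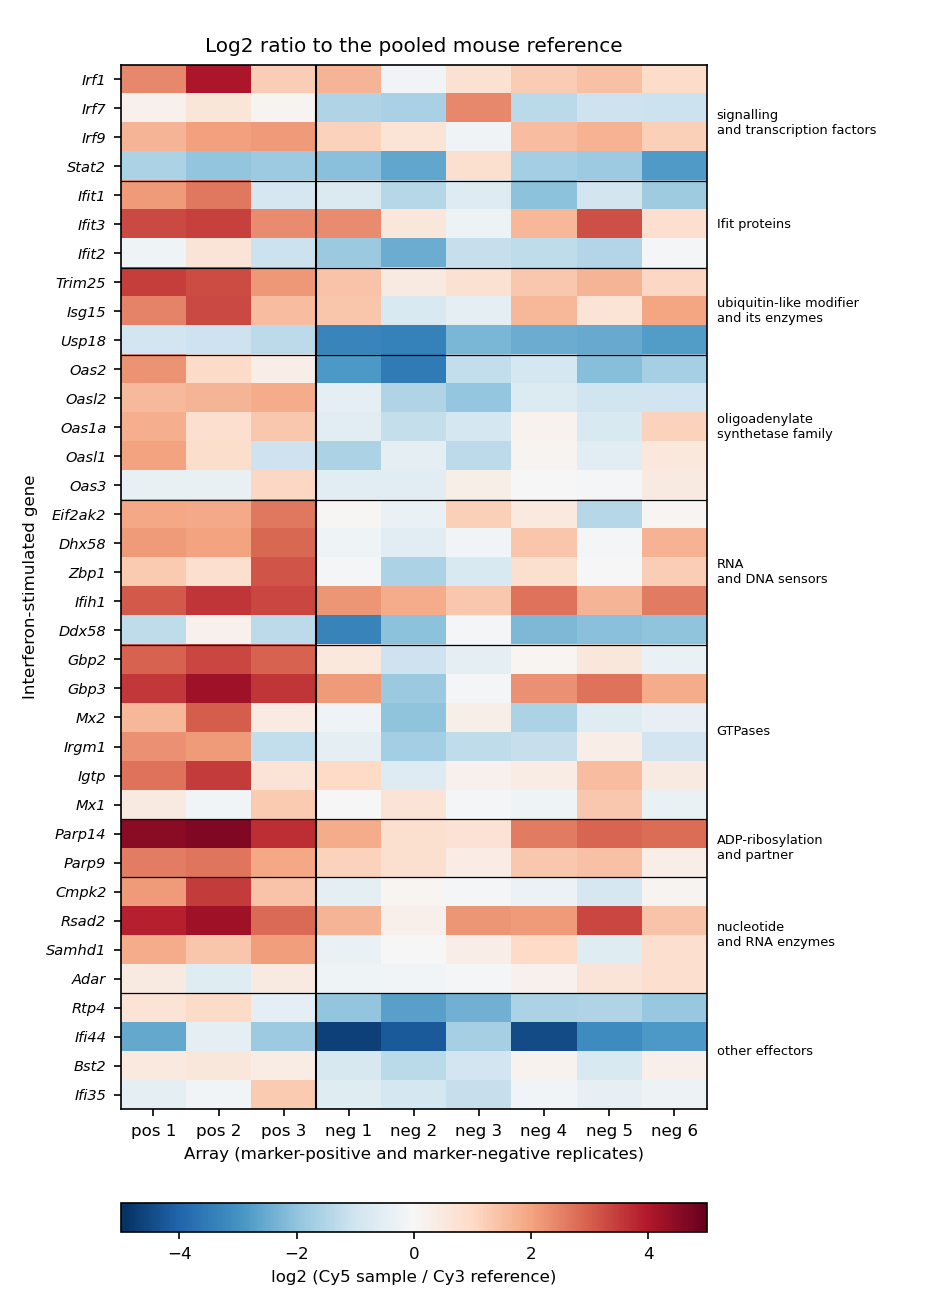
Log2 ratio to the reference (colour, red above and blue below 0) of the 36 genes (rows, grouped by role) on the 3 marker-positive and 6 marker-negative arrays (columns). Most rows are redder in the left 3 columns, while Stat2, Adar, Oas3 and Mx1 show no such step, and marker-negative replicate 3 stands out for Irf7 at 2.42.

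The promoters of called members were read to see whether they carry the letters that interferon-activated factors bind. Windows of 250 bases upstream of the annotated start were taken from RefSeq (GRCm38.p6), and 29 of the 38 listed genes had at least 1. The first 4 below are the called members with the largest differences that had a window. Oas2 and Rtp4 would also have been shown. Isg15 and Stat2 were added after their values were seen, because they carry the motif and were not called. Capitals mark matches on either strand to the core of the interferon-stimulated response element, which here is GAAA, any 2 bases and GAAA again.
Gbp2: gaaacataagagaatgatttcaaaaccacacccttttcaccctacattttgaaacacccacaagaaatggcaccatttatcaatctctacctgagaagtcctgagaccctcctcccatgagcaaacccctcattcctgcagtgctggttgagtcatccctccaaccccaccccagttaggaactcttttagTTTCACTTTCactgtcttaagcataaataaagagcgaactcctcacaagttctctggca
Oasl2: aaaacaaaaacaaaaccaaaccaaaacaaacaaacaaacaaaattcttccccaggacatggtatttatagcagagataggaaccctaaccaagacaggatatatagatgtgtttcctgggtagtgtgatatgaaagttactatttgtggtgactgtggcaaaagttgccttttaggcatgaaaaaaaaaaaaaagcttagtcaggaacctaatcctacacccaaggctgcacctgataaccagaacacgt
Cmpk2: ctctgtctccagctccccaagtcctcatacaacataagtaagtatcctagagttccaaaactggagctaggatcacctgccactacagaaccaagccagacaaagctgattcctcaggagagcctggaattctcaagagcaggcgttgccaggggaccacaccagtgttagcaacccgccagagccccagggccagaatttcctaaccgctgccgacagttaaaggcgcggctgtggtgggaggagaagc
Trim25: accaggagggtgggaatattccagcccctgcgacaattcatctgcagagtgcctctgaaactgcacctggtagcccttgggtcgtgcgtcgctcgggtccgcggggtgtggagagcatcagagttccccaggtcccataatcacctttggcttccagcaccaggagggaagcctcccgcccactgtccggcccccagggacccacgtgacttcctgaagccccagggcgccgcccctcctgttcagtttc
Isg15: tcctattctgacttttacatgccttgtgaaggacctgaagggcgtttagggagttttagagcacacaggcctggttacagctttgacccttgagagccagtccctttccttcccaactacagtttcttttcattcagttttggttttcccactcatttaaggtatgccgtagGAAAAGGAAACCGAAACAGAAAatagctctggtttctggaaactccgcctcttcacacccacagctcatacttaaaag
Stat2: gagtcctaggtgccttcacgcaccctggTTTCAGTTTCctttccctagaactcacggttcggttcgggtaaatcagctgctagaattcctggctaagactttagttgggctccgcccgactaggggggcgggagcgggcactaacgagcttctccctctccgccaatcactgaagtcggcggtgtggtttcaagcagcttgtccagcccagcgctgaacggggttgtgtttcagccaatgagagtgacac

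The windows are chr3:142620413-142620662 (Gbp2, plus strand), chr5:114896684-114896933 (Oasl2, plus strand), chr12:26468965-26469214 (Cmpk2, plus strand), chr11:88999153-88999402 (Trim25, plus strand), chr4:156200819-156201068 (Isg15, minus strand) and chr10:128270248-128270497 (Stat2, plus strand). Gbp2 held 1 match, on the minus strand, at positions -59 to -50 from the start. The Isg15 window held 3 overlapping matches in a single stretch, and the Stat2 window held 1, at positions -222 to -213. Among member windows 12 of 35 (34.29%) held the core, against 2.98% of 32851 windows of all genes. The core of the gamma-activated site (TTCNNNGAA, which reads the same on both strands and can overlap the first motif) was in 7 of 35 member windows (20%), against 7.02% of all windows. None of the 4 called members shown held it.

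The 12 tested members with a response element core in a window had a median difference of 1.76, and 1 of them (Gbp2) was called. The 15 tested members with windows that lacked the core had a median difference of 1.27, and 3 were called. These sets overlapped widely, from -0.08 to 3.19 with the core and from -0.12 to 2.82 without it. A match in this window is a description of its letters.

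Of the transcription factors that carry the signal, none passed the test. Irf9, the DNA-binding subunit of the type I interferon complex, was at 1.72, 2.06 and 2.15 on marker-positive arrays and at 1.17, 0.66, -0.17, 1.55, 1.74 and 1.18 on marker-negative arrays. Its difference was 0.95 (SE 0.41, adjusted p = 0.240 in limma), and the groups overlapped only through marker-negative replicate 5. A second, dimmer Irf9 probe gave -0.67 (adjusted p = 0.148 in limma). It was well above background on 0 of 3 marker-positive and 3 of 6 marker-negative arrays.

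Stat2, a subunit of the same complex, was at -1.59, -1.96 and -1.81 against -2.08, -2.60, 0.80, -1.72, -1.81 and -2.83. Its difference was -0.08 (SE 0.70, 95% interval -1.64 to 1.49), so a moderate change in either direction was not resolved. Marker-negative replicate 3 lay far above the other 5 marker-negative arrays.

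Irf7, the factor that amplifies interferon-alpha production, showed the same array more strongly. Its marker-positive values were 0.22, 0.61 and 0.12, and its marker-negative values were -1.50, -1.62, 2.42, -1.36, -1.04 and -1.09. Apart from replicate 3, every marker-negative value lay below every marker-positive one. Over all arrays the difference was 1.02 (SE 0.82, adjusted p = 0.544), and without that array it was 1.64 (adjusted p = 0.0214 in limma).

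Irf1, a factor induced most directly by interferon-gamma, was at 2.41, 4.05 and 1.23 in marker-positive cells and at 1.71, -0.12, 0.76, 1.28, 1.48 and 0.90 in marker-negative cells. The difference was 1.56 (SE 0.58, adjusted p = 0.177), and marker-positive replicate 3 lay within the marker-negative range. A second Irf1 probe gave -0.66 (adjusted p = 0.379).

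The 3 Ifit proteins, which bind viral RNA and restrain its translation, had positive differences without passing the test. Ifit1 was at 2.15, 2.64 and -0.84 on marker-positive arrays and at -0.71, -1.44, -0.63, -2.06, -0.90 and -1.77 on marker-negative arrays. Replicates 1 and 2 stood more than 2 log2 units above every marker-negative array, whereas replicate 3 lay within their range. Over all arrays the Ifit1 difference was 2.57 (SE 0.71, adjusted p = 0.0854), and without marker-positive replicate 3 it was 3.64 (adjusted p = 0.00446 in limma). The Ifit1 probe was well above background on 2 of 3 marker-positive and 3 of 6 marker-negative arrays. Ifit2 and Ifit3 had differences of 1.19 and 1.63. Near-identical copies exist in the Ifit, Oas and Gbp families, and a probe may read more than 1 of them.

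Genes of the ISG15 conjugation system included 2 of the 7 called members. Usp18, the protease that removes ISG15 from proteins and that damps the type I receptor (probe at chromosome 6, 121295796 to 121295855, build mm7), was at -0.96, -1.02 and -1.29 in marker-positive cells. In marker-negative cells it was at -3.28, -3.37, -2.28, -2.47, -2.52 and -2.81. Both groups were below the reference, and they did not overlap, with a difference of 1.70 (SE 0.31, adjusted p = 0.0205).

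Trim25, the ubiquitin ligase that activates the RNA sensor RIG-I and also ligates ISG15 (chromosome 11, 89128930 to 89128989), was at 3.46, 3.26 and 2.17 against 1.43, 0.44, 0.76, 1.33, 1.72 and 1.03. The groups did not overlap, and the difference was 1.84 (SE 0.36, adjusted p = 0.0271). A second Trim25 probe gave 1.71 (adjusted p = 0.220), and the mean over both probes did not pass (adjusted p = 0.0867).

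Isg15, the ubiquitin-like modifier itself, had nearly the same mean difference with a wider spread. It was at 2.49, 3.31 and 1.54 on marker-positive arrays and at 1.38, -0.75, -0.48, 1.67, 0.67 and 1.96 on marker-negative arrays. Its difference was 1.70 (SE 0.66, adjusted p = 0.194), and marker-negative replicates 4 and 6 lay above marker-positive replicate 3. The file places the Isg15 probe on chromosome 17 (44534906 to 44534965, mm7), while RefSeq places the gene on chromosome 4 in GRCm38.p6, so this probe may read another copy.

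The oligoadenylate synthetase family, whose members make the second messenger that activates RNase L or resemble the enzymes that do, split widely. Oasl2 (chromosome 5, 114132992 to 114133051) was among the most even of all members, at 1.62, 1.70 and 1.85 in marker-positive cells and at -0.47, -1.49, -1.95, -0.68, -0.99 and -1.004 in marker-negative cells. The difference was 2.82 (SE 0.35, adjusted p = 0.00342). All marker-positive arrays were above and all marker-negative arrays below the reference.

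Oas2 (chromosome 5, 119964411 to 119964470) was at 2.25, 0.94 and 0.33 against -2.86, -3.53, -1.25, -0.86, -2.12 and -1.65. Its difference of 3.22 was the largest of the 36 members in size but had a large error (SE 0.64, adjusted p = 0.0287), with no overlap between groups. The call ended when either marker-positive replicate 1 or replicate 2 was left out, and when marker-negative replicate 1 or 5 was (adjusted p = 0.0595 to 0.132).

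Oas1a had a difference of 1.69 (adjusted p = 0.106), Oasl1 of 1.18 and Oas3 of 0.16. A second Oas3 probe gave 0.22, so neither probe of this family member showed the step seen at Oas2. The 95% interval of the Oas3 difference ran from -0.74 to 1.07.

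None of the 5 sensors of foreign RNA or DNA passed the test, and all 5 had differences above 1. Eif2ak2, the kinase PKR that stops translation on double-stranded RNA, was at 1.94, 1.90 and 2.66 in marker-positive cells and at 0.07, -0.32, 1.18, 0.47, -1.44 and 0.10 in marker-negative cells. The groups did not overlap, and the difference of 2.15 (SE 0.51) missed the threshold narrowly (adjusted p = 0.0512). Leaving out marker-negative replicate 3 gave 2.39 (adjusted p = 0.032).

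Dhx58 (LGP2) had a difference of 1.99, Zbp1 of 1.82, Ifih1 (MDA5) of 1.27 and Ddx58 (RIG-I) of 1.19. Dhx58 and Ifih1 did not overlap between groups, whereas Zbp1 and Ddx58 did. The brightest Ddx58 probe was well above background on only 2 marker-positive and 2 marker-negative arrays. The other tested Ddx58 probes gave 1.02 and 0.08. Zbp1 was highest on marker-positive replicate 3, at 3.14, against 1.31 and 0.84 on the other marker-positive arrays.

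Among the interferon-induced GTPases, which assemble on membranes around pathogens, Gbp2 was called. Gbp2 (chromosome 3, 142530694 to 142530753) was at 2.93, 3.35 and 2.97 on marker-positive arrays and at 0.51, -1.02, -0.44, 0.09, 0.57 and -0.34 on marker-negative arrays. The 3 marker-positive values lay close together and at least 2.36 above every marker-negative one. Its difference was 3.19 (SE 0.38, adjusted p = 0.00324), a ratio of 9.10-fold. Of the 22 alternative fits, Gbp2 lost its call in 1, with slide as a fixed block (adjusted p = 0.0824).

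Mx2, a dynamin-like GTPase, was at 1.66, 3.04 and 0.40 against -0.18, -2.03, 0.29, -1.57, -0.59 and -0.41. The groups did not overlap, yet marker-positive replicate 3 lay only just above marker-negative replicate 3, and the difference was 2.45 (SE 0.66, adjusted p = 0.0774). Mx1, its antiviral relative, had a difference of 0.30 and a 95% interval of -0.63 to 1.24, and a second probe gave -0.35. Background to this pair is that BL6 mice carry a defective Mx1 gene, and RefSeq annotates both genes as transcribed pseudogenes in this strain.

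Gbp3 had a difference of 2.60, Irgm1 of 1.94 and Igtp of 1.81. Irgm1 was at 2.29 and 2.12 on marker-positive replicates 1 and 2 and at -1.21 on replicate 3, against -1.68 to 0.34 in marker-negative cells. Without replicate 3 the Irgm1 difference was 3.07 (adjusted p = 0.0109 in limma). The Gbp3 groups did not overlap, and their spread came mainly from marker-negative cells, which ranged from -1.86 to 2.73.

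Of the ADP-ribosyltransferases, Parp9 and Parp14 both separated the groups without passing the test. Parp9, which works with the ubiquitin ligase DTX3L, was at 2.57, 2.69 and 1.95 in marker-positive cells and at 1.14, 0.80, 0.37, 1.35, 1.48 and 0.35 in marker-negative cells. Its difference was 1.49 (SE 0.35, adjusted p = 0.0517). Parp14 was at 4.53, 4.63 and 3.70 against 1.85, 0.79, 0.74, 2.62, 2.91 and 2.78, with a difference of 2.34 (SE 0.56, adjusted p = 0.0522). Of the 22 alternative fits Parp9 passed in 7 and Parp14 in 4, in both cases including the one without marker-positive replicate 3. The other Parp14 probes, which lie elsewhere in the gene, gave 1.30 and -0.12.

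The enzymes that act on nucleotides and RNA included the called gene Cmpk2, a mitochondrial nucleotide kinase (chromosome 12, 24315074 to 24315133). It was at 2.15, 3.51 and 1.43 in marker-positive cells and at -0.47, 0.10, -0.11, -0.29, -0.85 and 0.12 in marker-negative cells. The groups did not overlap, and the difference was 2.61 (SE 0.44, adjusted p = 0.0139). The probe was well above background on 4 of 6 marker-negative arrays.

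Samhd1, which depletes the nucleotides that viruses need, was at 1.87, 1.40 and 2.11 against -0.34, -0.04, 0.32, 0.998, -0.60 and 0.85. Its groups did not overlap, and the difference was 1.59 (SE 0.40, adjusted p = 0.0653). A second, dimmer Samhd1 probe gave 0.36 (adjusted p = 0.675 in limma), with overlapping groups. Rsad2 (viperin), which makes a chain-terminating nucleotide, had a difference of 1.81 with overlapping groups. The other tested Rsad2 probes, which were dimmer, gave 0.90 and 0.39. Adar, the RNA-editing enzyme, had a difference of -0.12 on its brightest probe and of 1.37 on its second (adjusted p = 0.909 and 0.0586), so its direction was not settled by these probes.

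Among the remaining effectors Rtp4, a chaperone of receptor transport (chromosome 16, 23271913 to 23271972), was called. It was at 0.67, 0.94 and -0.47 on marker-positive arrays and at -1.97, -2.71, -2.40, -1.57, -1.52 and -1.90 on marker-negative arrays. Even the lowest marker-positive array lay 1.04 above the highest marker-negative one, and the difference was 2.39 (SE 0.38, adjusted p = 0.0116). Bst2 (tetherin), which holds budding virus at the cell surface, had a difference of 1.05 with groups that did not overlap. Ifi44 had a difference of 1.88 and Ifi35 of 0.79, and the Ifi44 probe was well above background on 2 marker-positive arrays and 1 marker-negative array.

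Different probes of 1 gene did not always give the same sign. Of the 18 members with several probes, 13 had several that could be tested, and in 5 of those the signs differed: Adar, Irf1, Irf9, Mx1 and Parp14. The second probes of Cmpk2 and Oas2 were too dim to be tested, so those calls rest on 1 probe each.

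Several members lie beside each other in the genome, and neighbours could differ. By probe positions in build mm7, 16 members fell into 9 pairs of consecutive members within 250 kb. Oas2 and Oas3, whose probes start 23.2 kb apart on chromosome 5, had differences of 3.22 and 0.16. Mx1 and Mx2, 115.1 kb apart on chromosome 16, had 0.30 and 2.45, and Oasl2 and Oasl1, 25.4 kb apart on chromosome 5, had 2.82 and 1.18. Other pairs were closer in size: Rsad2 and Cmpk2, 36.3 kb apart on chromosome 12, had 1.81 and 2.61, and Gbp3 and Gbp2, 64.6 kb apart on chromosome 3, had 2.60 and 3.19.

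Of 11 interferon genes tested, 0 were called higher and 1, Ifng, was called lower in marker-positive cells, and 6 had positive differences. Ifna12, an interferon-alpha gene, was at 0.57, 0.75 and 0.25 in marker-positive cells and at 0.06 to 0.23 in marker-negative cells. Its difference of 0.37 did not pass in limma (unadjusted p = 0.046, adjusted p = 0.244). These values did not overlap, as in 5.13% of all genes, and the probe was well above background on 2 of 3 marker-positive arrays. Ifna6, another interferon-alpha gene, separated the groups in the opposite direction. It was at 0.12 to 0.18 in marker-positive and at 0.28 to 0.85 in marker-negative cells, a difference of -0.32 that did not pass. Ifng was at 0.08, 0.01 and 2.08 in marker-positive cells and at 5.40, 3.20, 3.77, 5.54, 5.40 and 6.15 in marker-negative cells. Between the groups there was no overlap, with a difference of -4.19 (SE 0.73, adjusted p = 0.017). The probe was well above background on 1 of 3 marker-positive and on all 6 marker-negative arrays. Without marker-positive replicate 1 or 2, Ifng was not called.

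Ifnb1, the first interferon made after sensing, was at 3.27, 0.03 and -0.13 in marker-positive cells and ranged from 0.02 to 7.40 in marker-negative cells. Its difference was -3.23 (SE 1.55, adjusted p = 0.288). Ifna12 had a difference of 0.37 and Ifnz of -0.82, and neither passed. The median over the 11 genes was 0.01.

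Receptors, kinases and regulators of the interferon signal gave 0 calls among 17 genes tested, by limma. At an unadjusted p under 0.05, 3 of the 17 had a positive and 0 a negative difference. The smallest adjusted p-values belonged to the kinase Jak2 (difference 1.19, adjusted p = 0.0743), Stat3 (1.53, 0.076), the kinase Jak1 (1.12, 0.184) and the inhibitor Pias1 (1.14, 0.269). Outside the rule for named genes, and with their values seen, the receptor chains Ifnar1, Ifnar2, Ifngr1 and Ifngr2 are given because the signal starts at them, and they had differences of 0.57, 0.52, 0.38 and 0.31. The list's median difference was 0.52, with 14 of 17 positive. Without marker-positive replicate 3, 2 of the 17 were called higher, and without marker-negative replicate 4, 1 was.

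Sensors and adaptors that lead to interferon production gave 1 higher and 1 lower gene among 15 tested, where 1.56% of all genes were higher and 1.67% lower. The higher one was Myd88, the adaptor of most Toll-like receptors (1.33, SE 0.29, adjusted p = 0.0413), and the lower one was Irf3, the factor that first switches on Ifnb1 (-1.15, SE 0.22, adjusted p = 0.0259). Sting1, the adaptor of DNA sensing, had a difference of 1.04, and Tlr3, a receptor for double-stranded RNA, of 0.90. Both calls were lost when marker-positive replicate 1 or 2 was left out, and again for marker-negative replicate 1, 2 or 5. The Myd88 call was also lost without marker-negative replicate 3 or 6.

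A wider list of interferon-inducible genes that are not members gave 8 higher (14.3%) and 0 lower among 56 tested. Over all genes, 1.56% were called higher and 1.67% lower. Of the 56 genes, 46 had positive differences, and the median difference was 0.97. The 8 include the sort marker Ly6a. In 15 genes (26.8%, against 5.13% of all genes) every marker-positive array lay above every marker-negative array. In 2 of the 56 genes, against 1285 of all 19847, every marker-positive array lay below. The 10 negative differences reached -4.10. Ifi203, of the interferon-activated DNA-binding family, was higher by 3.56 (SE 0.39, adjusted p = 0.00237), and its relative Ifi205 by 3.91 (SE 0.70, adjusted p = 0.0196). Cxcl9, a chemokine induced by interferon-gamma, was at 4.32, 4.57 and 6.14 in marker-positive and at 0.05 to 1.59 in marker-negative cells. Its difference was 4.06 (SE 0.46, adjusted p = 0.0024). Ly6a was the fourth, and since it encodes a protein the cells were sorted on, its difference is no finding here. Without marker-positive replicate 1 or 2, 2 of the list's genes were called, and without marker-negative replicate 3, 5 or 6, 5 were.

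Markers of other cell types moved with the same groups. The counts of calls below stand beside 1.56% of all genes called higher and 1.67% lower. The macrophage list had means of 4.23, 3.26 and 3.98 on marker-positive arrays and of 0.24 to 2.62 on marker-negative arrays, with 4 of 12 genes higher and 0 lower. Cd163 and Mrc1, receptors of tissue macrophages, are 2 of those 4 and cleared background well on all 3 marker-positive and 0 of 6 marker-negative arrays, so they passed the detection filter through the marker-positive arrays alone. A bound was taken on normalized Cy5 signals and not on the ratios to the reference. It was set against the dimmest signal that cleared background on each marker-negative array, or the probe's own signal there if brighter. By this bound the Cy5 signal of Cd163 was at least 102-fold higher and that of Mrc1 at least 50.1-fold higher. The ratios to the reference gave 60.8-fold for Cd163 and 64.5-fold for Mrc1, so the bound is no floor for the ratios. Itgam (1.02) and Lyz2 (4.88) were the other 2. The 8 genes that did not pass had smaller differences, from -0.40 (Mertk) to 1.67 (Csf1r). Those of C1qa, C1qb and C1qc were 0.47, 0.75 and 0.16. The means of these C1q genes were high in both groups, at 5.05 to 5.69 in marker-positive and 4.30 to 5.22 in marker-negative cells. Mast cell genes had means of 3.91 to 4.33 against 0.77 to 3.36, with 4 of 9 higher and 0 lower, and 1 of those 4 is the sort marker Kit.

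T and NK cell genes ran the other way. Their mean was 0.31 to 1.81 on marker-positive and 2.03 to 4.56 on marker-negative arrays, with 0 of 12 higher and 5 lower. The largest of these were Cd3d, a T cell receptor subunit (-5.27), and the protease Gzmb (-5.12). Of the 12 genes, 10 had negative differences, and Cd4 (0.32) and Cd2 (0.41) had positive ones. Cd3e, of the same receptor as Cd3d, had a difference of only -0.12. On marker-positive replicate 3, Klrd1 (8.23) and Nkg7 (5.65) lay within the marker-negative range. Cd8a, another of the 5 lower genes, cleared background well on 0 of 3 marker-positive arrays, so it passed the detection filter through the marker-negative arrays alone. By the same kind of bound its Cy5 signal was at least 21.4-fold lower on the marker-positive arrays, while the ratios to the reference gave 13.4-fold. Ifng values followed the same order of groups, and the part of T and NK cells in them was not tested.

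Lists for plasmacytoid dendritic cells (means of -0.31 to -0.03 against -0.74 to 0.30, 1 of 7 higher), dendritic cells (1.24 to 3.04 against 0.38 to 2.40, 0 of 7) and B cells (-0.94 to 0.32 against -0.95 to 0.21, 0 of 6) overlapped between groups. Endothelial genes had means of 3.04, 4.52 and 0.59 against 0.21 to 1.57 (2 of 12 higher), and fibroblast genes of 1.80, 1.52 and -3.21 against -3.45 to -0.26 (0 of 9). Among the 3 marker-positive arrays, replicate 3 was the lowest for both of these lists. It was also the lowest for the smooth muscle, luminal, secretory, basal and erythroid lists. For the dendritic, plasmacytoid dendritic, B, T and NK and all-leukocyte lists it was the highest. Of the 36 members it was lowest for 20, in the middle for 7 and highest for 9, and the same tally was not made over all genes. Genes common to all leukocytes had means of 1.16 to 3.13 against -0.84 to 2.67 (0 of 10).

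Means of 3 more lists lay lower on every marker-positive array than on any marker-negative one. Luminal epithelial genes had means of 0.14 to 2.23 against 2.38 to 3.95, with 0 of 12 called higher and 2 lower, and secretory genes had 3 of 6 lower. Erythroid genes had means of 1.45 to 1.79 against 3.66 to 5.63, with 2 of 3 lower. Basal epithelial (0.03 to 2.67 against 0.01 to 1.72, 1 of 8 higher), smooth muscle (-1.50 to 1.07 against -1.92 to 0.31, 0 of 8) and neutrophil genes (0.32 to 2.45 against -0.61 to 2.70, 1 of 4 higher) overlapped between the groups. The part of these cells in the differences of the 36 members was not tested.

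**Figure D4:**
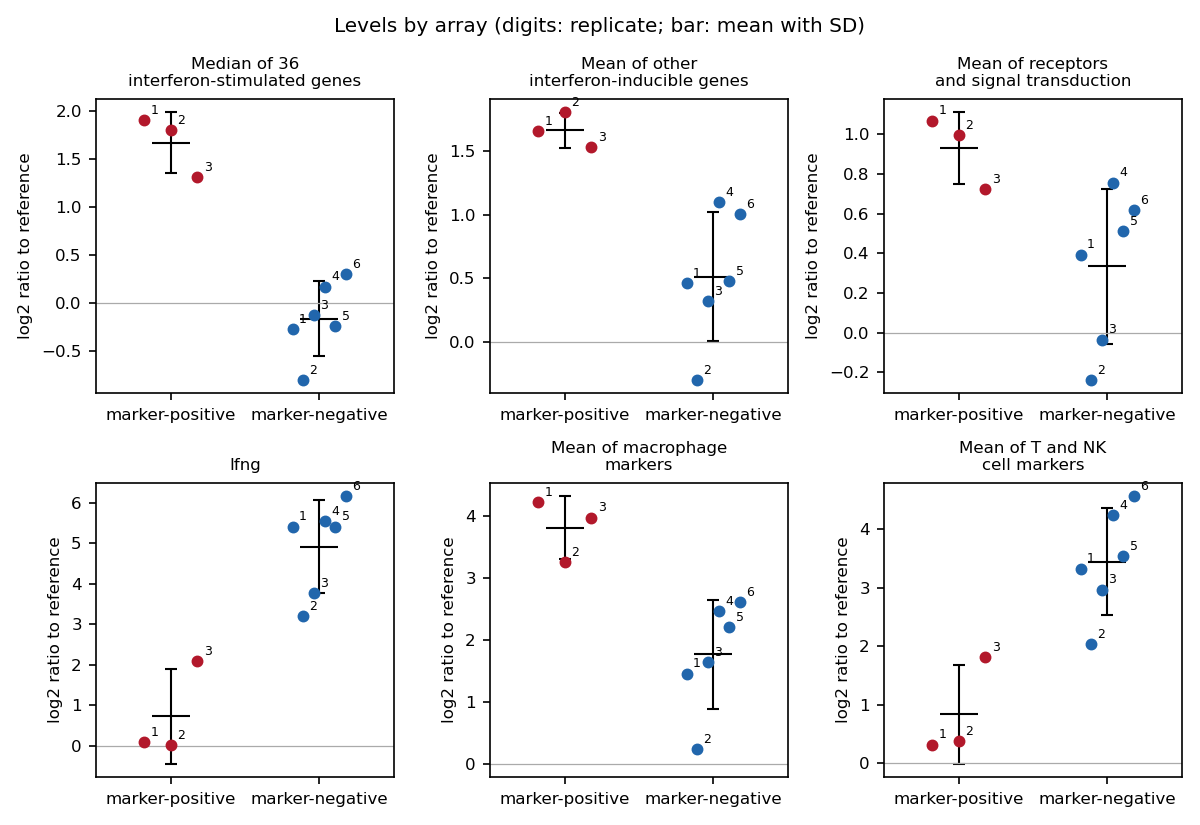
Log2 ratio to the reference on each array (points, with the replicate number; bars give mean and SD) for the median of the 36 genes, means of related gene lists, Ifng, and means of macrophage and T and NK cell markers. The 36-gene median and the macrophage mean are higher on all 3 marker-positive arrays, whereas Ifng and the T and NK cell mean are lower on all 3.

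Within the marker-negative group, the means of some leukocyte lists ran in the order of the 36 genes and others did not. Replicates 6 and 4 had the highest member medians (0.30 and 0.17), the highest T and NK cell means (4.56 and 4.24), the highest macrophage means (2.62 and 2.47) and the highest all-leukocyte means (2.58 and 2.67). Replicate 2 had the lowest of all 4 measures, at -0.81, 2.03, 0.24 and -0.84. Mast cell (3.36), neutrophil (2.70) and plasmacytoid dendritic cell means (0.30) were instead highest on replicate 3, whose member median was -0.13. With 6 arrays this order is given as a description.

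The authors' deposited table, which lists a signed fold for marker-positive over marker-negative cells, gave the same sign for all 36 member probes. It called 12 of them higher at an adjusted p under 0.05 and 0 lower, against 7 here. In the authors' deposited table Ifit1 had a fold of 5.93 (adjusted p = 0.00955) and Mx2 of 5.44 (adjusted p = 0.0483), neither of which passed here. The log2 column of the authors' deposited table has the opposite sign to its fold column in all 43379 rows, and the direction here follows the fold column and the dyes in the labels.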

How the data were processed

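RNA from 9 samples was read on 2-colour Agilent arrays. Per the file headers, the deposited scanner files give spot intensity values, not yet normalized, written by Feature Extraction 10.7.3.1 (10.7 per the submitters' processing notes). Per the labels, sample RNA was amplified before labelling with Cy5. The authors' deposited table gives a signed fold ratio (a score, negative where lower), a log2 value, a p-value and an adjusted p-value per probe; its normalization is not given in these sources.

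In limma 3.58.1 (R 4.3.3), intensities were corrected by normexp with an offset of 50 and normalized by loess within arrays, with outlier spots removed and spots of a probe averaged. Tested probes were well above the Cy5 background on 3 or more of 9 arrays (28334 of 41174). Groups were compared by the moderated test with intensity trend and robust variance, two-sided, with Benjamini-Hochberg adjustment over all tested probes. A gene is its tested probe of highest mean intensity. The number of arrays limits the precision. Of the probes, 22951 were named by a RefSeq accession given as systematic name, 131 by other accessions, 6582 by current symbol and 3073 by synonym, and 8437 kept the file's name. Probe coordinates are those of the files (mm7).

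The members and lists were chosen with earlier results of these data known. Values on every array are given for called members, for the 6 next in p, and for Isg15, Ifit1, Irf7, Irf1, Irf9 and Stat2; up to 4 genes per list are named by adjusted p. Alternatives covered background correction, normalization, filter, variance model, array weights, slide, probe rule and each array left out. Plots used matplotlib 3.10.9.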

Additional observations from a re-analysis of the deposited data

Results flagged for a closer look

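A search for single outlying arrays covered the 6 marker-negative arrays only, so no marker-positive array could be flagged. Of the 36 members, 2 had 1 marker-negative array far from the rest, and in both it was replicate 3. Irf7 was at 2.42 on that array and at most -1.04 on the other 5 marker-negative arrays, a gap of 0.857 of the group's range. Stat2 was at 0.80 there and at most -1.72 elsewhere, a gap of 0.693 of the range. Chance flags about 1 in 20 groups, and 36 members were examined. The same array had the highest means of the marker-negative group for erythroid (5.63), neutrophil (2.70), mast cell (3.36), plasmacytoid dendritic cell (0.30), secretory (9.01) and fibroblast genes (-0.26). Its share of probes well above background in Cy5 was the lowest of that group, at 48.33% against 58.32% to 70.12%. Its array weight, 0.461, was also the lowest there. The part of these traits in the Irf7 and Stat2 values was not tested. Without this array the Stat2 difference was 0.43.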

How the results depend on the processing

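No paired analysis was possible because the labels give no replicate numbers shared by the groups; slides that held both groups were used as a block and for within-slide differences instead. No member was called lower in any fit. The 7 calls became 2 with median centring or with slide as a fixed block and 25 with array weights, which gave marker-positive replicate 3 a weight of 0.243; with each array left out they ran from 2 to 14. Other fits gave 7 to 10. Over all genes, the 310 higher calls of the main fit became 139 with median centring, 127 with the fixed block and 2200 with array weights. With arrays left out they ran from 88 to 914. The median difference, 1.70, was 2.13 with the fixed block and 2.34 within slide 2. Counts for the wider list include the sort marker Ly6a wherever it passed. The wider interferon-inducible list, 8 higher, had 4 with scanner-processed signals, 5 with median centring, 27 with array weights (2 lower), 2 with the fixed block and 2 to 12 with arrays left out, where 0 or 1 were lower; 1 was lower with the both-channel filter. The Ifng call was lost, giving 0, with processed signals, Cy5 alone, the both-channel filter and the fixed block, and with arrays left out the count was 0 or 1; with array weights 1 interferon was higher. Signal genes, 0 higher, had 5 with array weights and 0 to 2 with arrays left out. Sensors upstream of interferon had 0 higher and 0 lower with median centring and the fixed block, 0 higher without the detection filter, 3 higher with array weights and 0 lower with probe means, and 0 or 1 each way with arrays left out. Among the 36 members only Adar, Stat2, Oas3 and Mx1, none of them called, changed sign. Adar was 0.019 with median centring, 0.63 with probe means, 0.66 within slide 1 and -0.29 to 0.23 with arrays left out. Stat2 was 0.22 with array weights, 0.33 with the fixed block, 0.49 and 0.20 within slides 1 and 2 and -0.30 to 0.43 with arrays left out. Oas3 was -0.10 with array weights, -0.000525 with the fixed block, -0.13 within slide 2 and -0.31 to 0.40 with arrays left out. Mx1 was -0.070 with array weights, -0.038 with the fixed block, -0.025 with probe means, -0.39 within slide 2 and -0.087 to 0.64 with arrays left out. The causes were not tested.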
